A study of Mus musculus with 16 samples.

Results

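Expression of 7 genes of the major histocompatibility complex (MHC) class II pathway was examined in neutrophils of the blood and the lung from WT and αD KO mice. The 7 genes were chosen by name out of 49315 genes in the count files. They are the class II chains H2-Aa, H2-Ab1 and H2-Eb1, the H2-DM chains H2-DMa and H2-DMb1, the invariant chain Cd74, and the class II transactivator Ciita. Ighm, the heavy chain of IgM, and Cd79a, a chain of the B cell receptor, were read beside them to judge B cell RNA. Cells were sorted by their Ly6G, CD11b and CD45.2 staining from male mice of 8 to 12 weeks, either naive mice without surgery (0h) or mice that had undergone CLP (cecal ligation and puncture) 12h earlier, a model of abdominal sepsis. αD KO mice lack the αD chain (CD11d, gene Itgad) of a β2 integrin by their label. Each of the 8 groups (WT or αD KO, blood or lung, 0h or 12h) has 3 count files under 2 samples. The files of the first sample are called libraries 1a and 1b and that of the second sample library 2. It is not stated whether they came from separate animals, and n = 3 below counts files and not samples, so p-values measure the spread between these libraries, which may be technical. The controls were naive mice and not mice with sham surgery, so the time comparisons cover surgery and sepsis together. Total counts were 5753476 to 29984954 per library.

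MHC class II molecules present peptides from the endosomal route to CD4+ T cells. They are heterodimers of an α and a β chain (H2-Aa with H2-Ab1, and H2-Eb1 as the β chain of the E molecule). CD74 holds the new dimer and fills its groove until proteases leave a short fragment of it there, which H2-DM (H2-DMa with H2-DMb1) exchanges for a peptide. CIITA does not bind DNA itself and drives these genes through factors on the X and Y boxes of their promoters. B cells, dendritic cells and activated macrophages are known for high class II expression, and resting neutrophils for little of it.

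On build GRCm38, as in the count files, H2-DMa (chromosome 17, 34135182 to 34139101), H2-DMb1 (34153072 to 34160230), H2-Ab1 (34263209 to 34269418), H2-Aa (34282744 to 34287827, minus strand) and H2-Eb1 (34305877 to 34316199) are neighbours on chromosome 17. Promoters are shown because these genes share the boxes through which CIITA acts. They were searched in the RefSeq promoter table for GRCm38.p6 (250 bases before to 50 bases after each start), which holds H2-Aa, H2-Eb1, H2-DMa and H2-DMb1 of the members. Both strands were searched for the X box consensus and a Y box written as TGATTGG. Of 32851 promoters, 10 held this X box string (0.03044%), 2568 held this Y box string (7.817%), and 2 held both, those of H2-Eb1 and H2-DMb1. Capitals in these stretches, which run up to 5 bases before the RefSeq start, mark the matches:
H2-Eb1 (chr17:34305737-34305861, plus strand): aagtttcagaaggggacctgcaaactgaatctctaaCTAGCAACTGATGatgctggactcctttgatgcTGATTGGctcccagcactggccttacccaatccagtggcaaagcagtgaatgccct
H2-Aa (chr17:34287829-34287953, minus strand): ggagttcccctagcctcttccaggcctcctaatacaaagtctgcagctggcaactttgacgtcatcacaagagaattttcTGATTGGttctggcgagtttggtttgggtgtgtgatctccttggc

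In H2-Eb1 the X box began 94 bases and the Y box 61 bases before the start, 33 bases apart. In H2-DMb1 the boxes read CTAGTAACTGATG and TGATTGG and began 97 and 63 bases before the start, 34 bases apart. H2-Aa held the Y box 50 bases before the start, and no match to the X box string above. An X box with other letters was not searched for. Among the other class II genes, H2-DMb2, H2-Oa, H2-Ob and H2-Eb2 each held the Y box. The windows of H2-DMa, with RefSeq starts 12350 and 9664 bases from the start in the count files, held neither string. A match is a description of the letters and not of a factor bound there.

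A few facts of the libraries bear on every comparison. Itgad was 0.0522 to 4.08 CPM (CPM is a gene's count relative to the library's total count, scaled by edgeR's TMM factors) in the 12 libraries labelled WT and 12.6 to 96.1 CPM in the 12 libraries labelled αD KO, so the targeted gene's count goes against the label and the direction of every genotype comparison rests on the labels alone. Along the 1339 genes, members and both B cell genes left out, that edgeR called between 0h and 12h in WT lung (0 for the WT 0h mean and 1 for the WT 12h mean), αD KO lung library 2 at 0h stood at 1.02, and αD KO lung libraries 1a and 2 at 12h stood at 0.0954 and 0.182. These 3 libraries stand nearer to the WT mean of the other time than to that of their label, and results on αD KO lung are given with and without them. They were picked by their place along genes that change with time, so values without them are a description, and no p or call from those fits tests time or genotype. The 8 libraries 1b held counts for 29162 to 38844 genes, the other 16 for 17132 to 32666. All 8 neutrophil markers (S100a8, S100a9, Ly6g, Csf3r, Cxcr2, Mmp9, Retnlg and Itgam) were detected in every library, and together they made up 36631 to 175956 CPM. In these bulk samples, fewer cells of a type and less RNA per cell cannot be told apart.

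Of the members outside that cluster, Ciita lies on chromosome 16 (10488178 to 10527564) and Cd74 on chromosome 18 (60803848 to 60812646), both on the plus strand. All 7 members were detected in all 24 libraries. Per kilobase of exon, Cd74 was the most abundant member in 24 of 24 libraries and H2-Ab1 the second in 23. H2-Eb1 was the third in 18 libraries and Ciita the last in 21. The median level over the 24 libraries was 82.4 CPM per kilobase for Cd74, 14.9 for H2-Ab1, 12.1 for H2-Eb1 and 8.96 for H2-Aa. It was 1.91 CPM per kilobase for H2-DMb1, 1.46 for H2-DMa and 0.378 for Ciita. The median of Ighm was 154 CPM per kilobase and that of Cd79a 5.52, so that Cd74 lay between these B cell genes. Of the 75-base windows of H2-DMb1 transcripts, 15.84% also occur in its near copy H2-DMb2, and reads there may not have been counted as unique. Ciita shares 111 of its 5254 exon bases with Dexi on the opposite strand, and since strand is not stated for the counting, reads from these bases cannot be assigned to either gene.

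The classical chains, which form the peptide groove, varied widely between libraries of the same group. H2-Aa was 26.1, 5.81 and 40.4 CPM in WT blood at 0h (libraries 1a, 1b and 2) and 7.36, 7.14 and 18.8 CPM at 12h. In WT lung it was 29.2, 29.5 and 12.7 CPM at 0h and 16.7, 3.25 and 16.9 CPM at 12h. H2-Aa in αD KO blood was 19.7, 7.86 and 245 CPM at 0h and 23.5, 2.52 and 4.54 CPM at 12h. A single library, number 2 of αD KO blood at 0h, was 6.06 times as high as the next of all 24. In αD KO lung H2-Aa was 16.9, 15.4 and 7.21 CPM at 0h and 20.6, 2.39 and 25.6 CPM at 12h. Its partner H2-Ab1 followed H2-Aa from library to library (Spearman rho 0.96 over 24 libraries, a description), from 2.61 CPM in αD KO blood library 1b at 12h to 359 CPM in αD KO blood library 2 at 0h. H2-Eb1 spanned 1.08 to 158 CPM between the same libraries, with rho 0.94 to H2-Aa.

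Cd74, which carries the new dimers, was 192, 28.5 and 260.1 CPM in WT blood at 0h and 47.8, 31.0 and 148 CPM at 12h. In WT lung it was 164, 133 and 98.7 CPM at 0h and 187, 14.6 and 280.4 CPM at 12h. At 12h WT lung thus held both the second highest of the 24 Cd74 values and 1 of the lowest. In αD KO blood Cd74 was 157, 43.7 and 1115 CPM at 0h and 185, 13.9 and 50.1 CPM at 12h, and in αD KO lung 99.8, 65.6 and 70.9 CPM at 0h and 137, 34.8 and 167 CPM at 12h. Library 1b was the lowest of its group for Cd74 in 7 of 8 groups and for H2-Aa in 6 of 8.

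H2-DMa and H2-DMb1, which load the peptide, were low, with medians of 2.40 and 2.84 CPM over the 24 libraries, and went together (rho 0.92). H2-DMa ran from 0.59 CPM in WT lung library 1b at 12h to 49.5 CPM in αD KO blood library 2 at 0h, and H2-DMb1 from 0.55 to 49.2 CPM. Ciita, the switch of the set, was lower still, with a median of 1.99 CPM. It was 1.54, 6.60 and 4.23 CPM in WT blood at 0h and 0.0522, 1.91 and 0.669 CPM at 12h, and in WT lung 2.65, 5.0 and 0.766 CPM at 0h and 0.428, 2.07 and 0.215 CPM at 12h. Ciita in αD KO blood was 5.79, 5.64 and 13.7 CPM at 0h and 0.367, 1.08 and 0.0614 CPM at 12h. In αD KO lung it was 2.14, 2.95 and 0.0616 CPM at 0h and 1.60, 2.39 and 2.83 CPM at 12h. Library 1b was the highest of its group for Ciita in 6 of 8 groups, where for Cd74 it was the highest in 0. Ciita went with Cd74 least of all pairs of members (rho 0.03), and with H2-DMb1 more closely (rho 0.62).

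**Figure D1:**
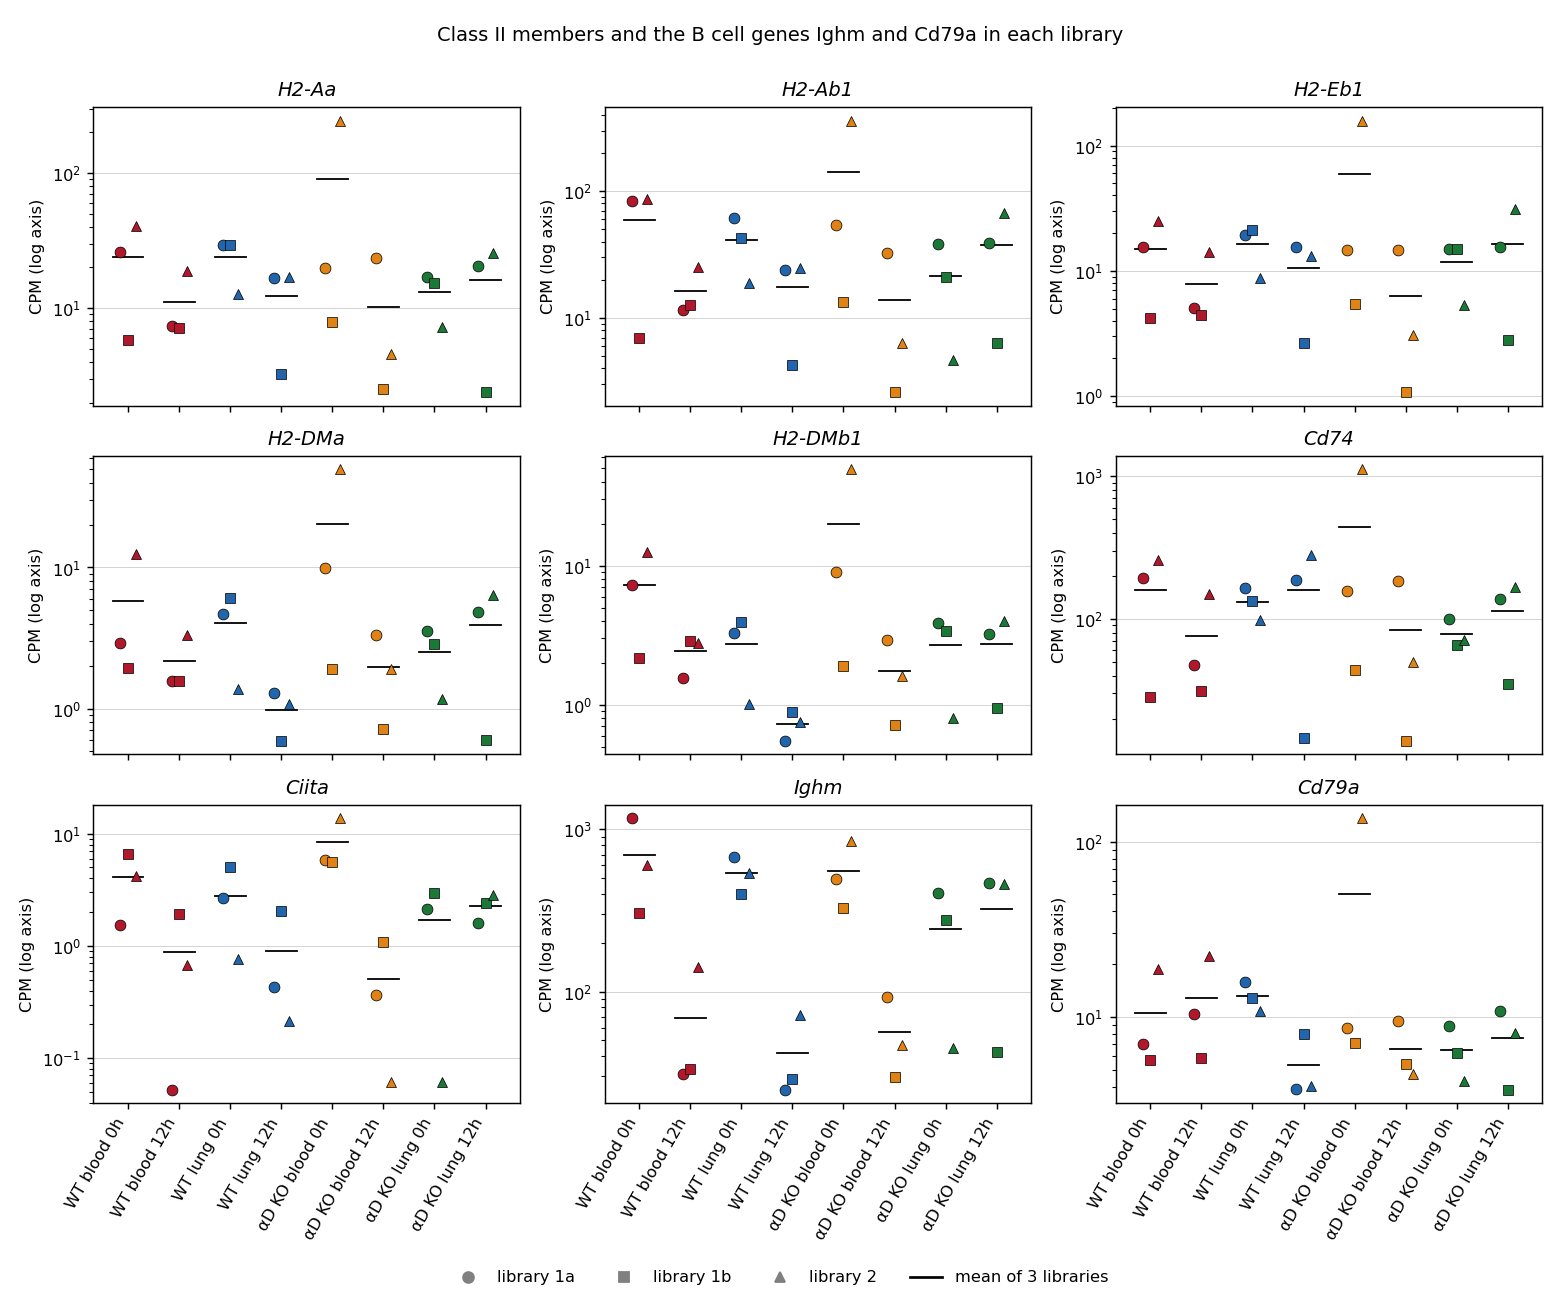
Level of the 7 members and of Ighm and Cd79a in each library, in CPM on a log axis, for the 8 groups on the x axis. Points are libraries (circle 1a, square 1b, triangle 2) and bars are the mean of 3 libraries. The triangle of αD KO blood at 0h stands above all other libraries for each member, at 1115 CPM for Cd74.

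Ordered by their means, groups ran from αD KO blood at 0h, the highest for all 7 members, to αD KO blood at 12h, the lowest for H2-Aa, H2-Ab1, H2-Eb1 and Ciita. WT lung at 12h was the lowest for H2-DMa and H2-DMb1, and WT blood at 12h for Cd74. For Cd74 the group means ran from 439 ± 588 CPM (SD, n = 3) in αD KO blood at 0h to 75.7 ± 63.6 CPM (SD, n = 3) in WT blood at 12h. Of the 7 pairs of neighbours in this order, 0 differed by more than the larger SD, for each of the 7 members.

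The high library of αD KO blood at 0h was also the highest of the 24 in genes of other leukocytes. Its Cd79a was 136 CPM against 22.4 CPM in the next library, and its Ms4a1 (CD20) 77.0 against 11.7 CPM. The 12 B cell markers without Ighm summed to 858 CPM there and to 6.23 to 169 CPM in the other 23 libraries. The 8 T and NK cell markers summed to 404 CPM there and to 8.66 to 32.7 CPM elsewhere, and the 8 dendritic cell markers to 171 CPM against 3.27 to 45.2 CPM. Ighm was 848 CPM in this library, below the 1170.4 CPM of WT blood library 1a at 0h. The part of these cells in the class II level was not tested. In 5 of 8 groups the library with the highest summed members was also the one with the highest summed B cell markers without Ighm.

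Ratios of counts within a library set the members beside the B cell genes without any scaling. Cd74 had 1.83 to 69.4 times the counts of Cd79a, with a median of 10.5. The highest ratios were in WT lung at 12h, 69.4 in library 2 and 47.8 in library 1a, and the lowest was in library 1b of the same group. In libraries 1a and 2 of that group Cd74 was 187 and 280.4 CPM, while Ms4a1 was 0.183 and 0.0539 CPM (3 and 1 counts). In αD KO lung library 2 at 0h, Cd74 was 70.9 CPM with Ms4a1 at 0.123 CPM (2 counts). Ms4a1 was chosen after its values were seen. The 11 B cell markers other than Ighm and Cd79a summed to 3.79 CPM in WT lung library 1a at 12h, 28.4 CPM in library 2 and 1.91 CPM in that αD KO lung library, against 8.11 to 723 CPM in the other 21 libraries. Ighm was 24.9, 72.0 and 44.9 CPM in these 3, and Cd79a 3.91, 4.04 and 4.31 CPM. Within the pathway the ratio of Cd74 to H2-Aa counts was 11.2 and 16.6 in WT lung libraries 1a and 2 at 12h and 4.49 to 7.75 in the 3 WT lung libraries at 0h. The ratio of Cd74 to H2-DMa counts was 146 and 260.2 in the former and 22.0 to 72.0 in the latter. Library 1b of WT lung at 12h did not share this. It had 4.48 for Cd74 to H2-Aa, below all 3 libraries at 0h, and 24.7 for Cd74 to H2-DMa, within their range. A high ratio of Cd74 to H2-Aa was not particular to WT lung at 12h. At 12h it was 14.5 in αD KO lung library 1b and 11.03 in αD KO blood library 2. In αD KO lung library 2 at 0h, which stands apart, it was 9.83. Cd74 to H2-DMa in these αD KO libraries was 58.1, 26.3 and 60.5 in that order, within the range of WT lung at 0h. Over all 24 libraries the ratio of Cd74 to H2-Aa spanned 4.26 to 16.6, that of H2-Ab1 to H2-Aa 0.641 to 3.18, and that of Ighm to Cd79a 3.01 to 166.

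**Figure D2:**
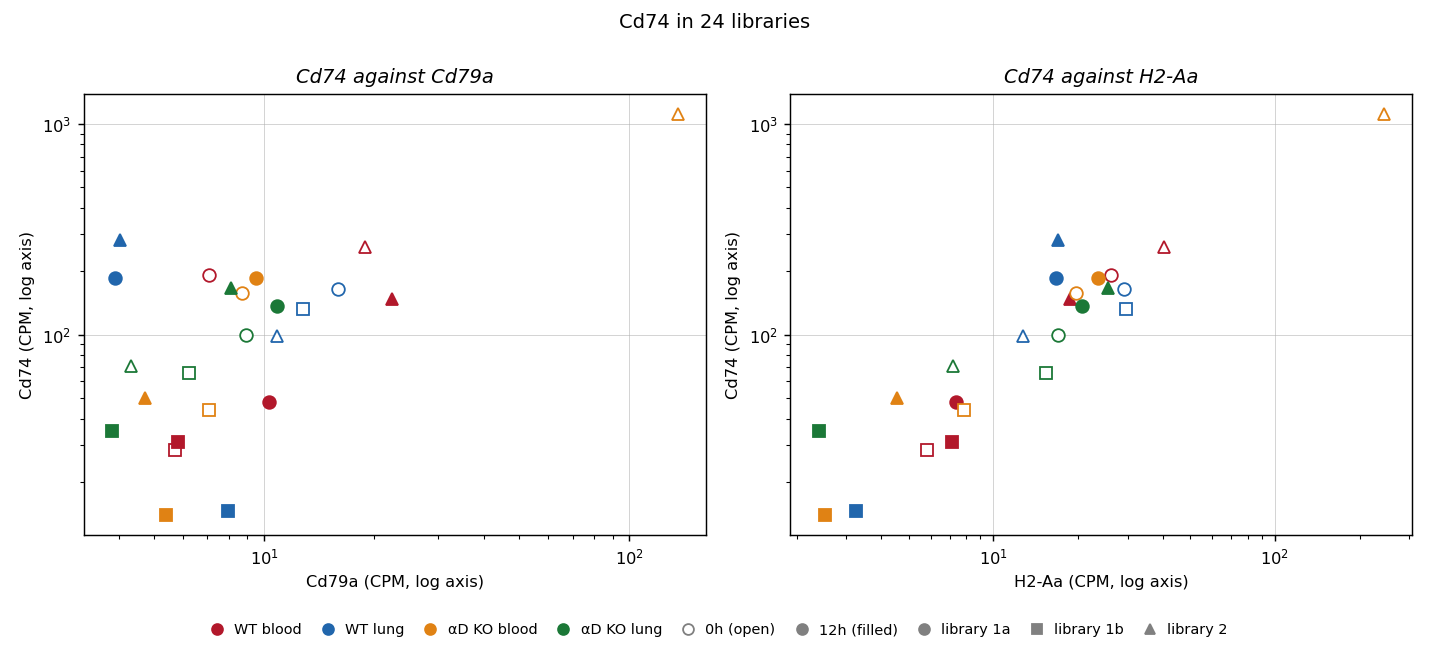
Cd74 against Cd79a (left) and against H2-Aa (right) in 24 libraries, in CPM on log axes. Colours are genotype and tissue, open points 0h, filled points 12h, and shapes the library. Filled blue points of WT lung at 12h (libraries 1a and 2) lie at low Cd79a (3.91 and 4.04 CPM) and high Cd74 (187 and 280.4 CPM).

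The genes whose log2 CPM over the 24 libraries was most like the mean of the members, among 13912 other genes with a mean of at least 1 CPM, were Ccr7 (Spearman rho 0.86), H2-DMb2 (0.854), Fcmr (0.852), Apoe (0.852), Cmtm8 (0.85), B3gnt8 (0.846), Abhd4 (0.839), Cenpa (0.838), Ighd (0.838) and Tbc1d17 (0.835). Ccr7 is a chemokine receptor of lymphocytes and migrating dendritic cells, Fcmr the receptor of IgM, and Ighd the heavy chain of IgD. The median rho was 0.834 for 3 other class II genes, 0.697 for 12 B cell markers, 0.606 for 7 genes of the interferon gamma route to Ciita, and 0.573 for 8 dendritic cell markers. It was 0.491 for 10 class I genes, 0.464 for 8 T and NK cell markers, 0.324 for 9 monocyte and macrophage markers and -0.029 for all genes. For 8 neutrophil markers it was -0.333, but that list was split, from -0.646 (S100a9) to 0.733 (Csf3r). The libraries share groups and differ in depth, and rho is given as a description. Within the 12 libraries of 0h the median rho was 0.689 for B cell, 0.442 for dendritic cell and 0.559 for monocyte and macrophage markers, and within the 12 of 12h it was 0.531, 0.0874 and 0. That of neutrophil markers changed sign, with 0.213 at 0h and -0.535 at 12h. For the interferon gamma route the median rho was 0.371 at 0h and 0.042 at 12h.

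To ask whether class II genes changed after CLP, 12h was compared with 0h in each tissue and genotype. DEGs were called by edgeR's quasi-likelihood F test where the p-value, adjusted by the Benjamini-Hochberg method over all genes tested, was under 0.05 and the log2 fold change was beyond 1 in either direction. The 7 members passed the filter on low counts in every comparison. For 1 gene alone, groups of 3 libraries allow no exact permutation p below 0.1.

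In WT blood, all 7 members had lower fitted levels at 12h and 0 of 7 were called by edgeR or DESeq2. Over all genes edgeR called 13.5% of 14625 tested, and DESeq2 called 2909. An unadjusted p under 0.05 was reached by 2 of 7 members and 28.8% of genes. H2-Ab1 was 59.0 ± 45.1 CPM at 0h and 16.4 ± 7.47 CPM at 12h (SD, n = 3), a log2 fold change of -1.91 (standard error 0.81, edgeR adjusted p = 0.166). H2-DMb1 had -1.65 (standard error 0.68, edgeR adjusted p = 0.153) and Ciita -2.23 (standard error 1.12, edgeR adjusted p = 0.235). The median of the members was -1.49 and that of all genes tested -0.15. Libraries of the 2 times overlapped for all 7 members, where 38% of the genes tested did not overlap. Ighm fell from 692 ± 440.2 to 68.6 ± 63.1 CPM (log2 fold change -3.39, edgeR adjusted p = 0.0303), a call lost without any 1 of 5 libraries, all but 1b at 0h (edgeR adjusted p from 0.0726 to 0.337), and with all 8 groups in the fit (0.0582), with log2 fold changes from -4.48 to -2.74 when 1 library was left out. Cd79a was 10.5 ± 7.25 and 12.8 ± 8.55 CPM (edgeR adjusted p = 0.841). The 8 neutrophil markers summed to 36631 to 45844 CPM at 0h and 116152 to 175956 CPM at 12h, where 5 of the 8 rose (0 to 5 with 1 library left out) and 1 fell. The share of the count left for other genes was thus smaller at 12h. Without TMM factors, H2-Ab1 averaged 61.7 CPM at 0h and 14.3 CPM at 12h. The part of the smaller share in the members' values was not tested. Same-numbered libraries deviated together here, and Ciita was called when library number entered the fit as a block (log2 fold change -2.81, edgeR adjusted p = 0.0407), as 18.4% of genes were. Without WT blood library 1b at 0h, the lowest of its group in 6 members, 3 members were called, H2-Aa (log2 fold change -1.66), H2-Ab1 (-2.44) and H2-DMb1 (-2.09), with edgeR adjusted p from 0.00616 to 0.0476, where 18.4% of genes were. Without library 2 at 0h, the highest of its group in 6 members, 0 were called and the values lay nearer 0, with H2-DMa at -0.06, H2-Eb1 at -0.29, H2-Aa at -0.50, Cd74 at -0.52, H2-DMb1 at -0.93, H2-Ab1 at -1.46 and Ciita at -1.98. In that library the 7 markers of lung epithelium and endothelium summed to 239.7 CPM, against 2.79 and 14.0 CPM in the others of its group and 1.62 to 4.20 CPM at 12h. Of the 4 tested, Sftpc, a surfactant protein gene, fell (log2 fold change -10.14, edgeR adjusted p = 0.0448, a call lost without any 1 of 5 libraries, all but 1b at 0h), and the part of such cells in the members' values was not tested.

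In αD KO blood, Ciita fell at 12h and was the only member called. It was 8.38 ± 4.62 CPM at 0h and 0.502 ± 0.522 CPM at 12h (SD, n = 3), a log2 fold change of -4.15 (standard error 0.91, edgeR adjusted p = 0.0326), and libraries of the 2 times did not overlap. Its counts were 144, 71 and 380 at 0h and 6, 12 and 1 at 12h. The 8 neutrophil markers summed to 39358 to 55765 CPM at 0h and 97886 to 143089 CPM at 12h, where 3 of the 8 rose (0 to 3 with 1 library left out) and 1 fell. A smaller share of the count was thus left for other genes at 12h here too. Without TMM factors, Ciita averaged 10.2 CPM at 0h and 0.449 CPM at 12h. The part of the smaller share in the value of Ciita was not tested. DEGs made up 8.75% of 14156 genes tested, and 4.99% were DEGs with a lower level at 12h. Of genes 33.3% did not overlap, against 1 of 7 members, and an unadjusted p under 0.05 was reached by 27.8% of genes and 6 of 7 members. The other 6 members had log2 fold changes from -3.51 (H2-DMb1) to -2.40 (Cd74), with edgeR adjusted p from 0.0789 to 0.237. The median of the members was -3.36 and that of all genes -0.14. DESeq2 called H2-DMa, H2-DMb1 and Ciita, where it called 5.69% of genes. Much of the fold change of the other members lay in the high library: without αD KO blood library 2 at 0h, the log2 fold change of Cd74 was -0.24, of H2-Aa -0.40, of H2-Eb1 -0.66, of H2-Ab1 -1.24, of H2-DMa -1.54 and of H2-DMb1 -1.61. Ciita still had -3.53 without it (edgeR adjusted p = 0.0878). Ighm fell (log2 fold change -3.34, edgeR adjusted p = 0.00967), a call lost without library 1a at 0h (0.0759) or library 2 at 12h (0.0908) and with all 8 groups in the fit (0.0979). Its log2 fold change stayed between -3.87 and -2.84 with 1 library left out. Cd79a had -2.96 (edgeR adjusted p = 0.122), and -0.24 without that library.

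The call of Ciita in αD KO blood depended on the libraries. It was lost without library 1a or 2 at 0h and without library 1a or 2 at 12h (edgeR adjusted p from 0.0878 to 0.147), with the files of the first sample summed (0.0792) and with all 8 groups in the fit (0.102). It was kept under RLE normalization, the library block, libraries 1a and 2 alone and DESeq2. Over these alternatives its log2 fold change ran from -5.49 to -3.53.

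In WT lung, 0 of 7 members were called by edgeR or DESeq2, where edgeR called 9.02% of 14859 genes and DESeq2 called 2372. An unadjusted p under 0.05 was reached by 2 of 7 members and 26.6% of genes. H2-DMa was 4.70, 6.03 and 1.37 CPM at 0h and 1.28, 0.59 and 1.08 CPM at 12h (log2 fold change -2.02, standard error 0.69, edgeR adjusted p = 0.107). H2-DMb1 was 3.30, 3.91 and 1.01 CPM at 0h and 0.55, 0.885 and 0.754 CPM at 12h (log2 fold change -1.90, standard error 0.71, edgeR adjusted p = 0.130). These were the 2 members whose libraries did not overlap between the times, among 32.1% of genes tested. The classical chains had log2 fold changes of -1.24 (H2-Ab1), -0.98 (H2-Aa) and -0.67 (H2-Eb1). Cd74 had 0.24 (standard error 0.80, edgeR adjusted p = 0.892), and the sign turned without library 2 at 12h (-0.55) and with the library block (-0.37). Ciita had -1.61 (edgeR adjusted p = 0.36) and was called without library 1b at 12h (log2 fold change -3.28, edgeR adjusted p = 0.0466), as 25.3% of genes were. Ighm fell from 540.0 ± 140.4 to 42.0 ± 26.1 CPM (log2 fold change -3.71, edgeR adjusted p = 0.00888), a call lost without library 1a or 2 of either time (edgeR adjusted p from 0.0575 to 0.140) and with all 8 groups in the fit (0.0543), while its log2 fold change stayed between -4.54 and -3.42 with 1 library left out. Cd79a had -1.30 (edgeR adjusted p = 0.0965), and was called by DESeq2 and without library 1b at 12h.

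In αD KO lung, 0 of 7 members and 0% of 17939 genes were called by edgeR or DESeq2, and 72 genes (0.401%) had an unadjusted p under 0.05, with 0 members among them. The members' log2 fold changes ran from 0.07 (H2-DMb1) to 0.84 (H2-Ab1), all above 0. Libraries overlapped for all 7 members, where 3.53% of genes did not. Without the 3 libraries that stand apart, which leaves libraries 1a and 1b at 0h and 1b at 12h, all 7 were below 0, with a median of -2.40. H2-Aa, at 16.9 and 15.4 CPM against 2.39 CPM, had -2.88 and passed the thresholds, as 1.41% of genes did, which is no test, since the libraries left were those that follow the WT time axis. In that fit the lone library of 12h is assumed to vary like those of 0h, and it is a library 1b. Ighm had 0.45 in all libraries and -3.16 in the 3 left, and Cd79a 0.26 and -1.12.

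**Figure D3:**
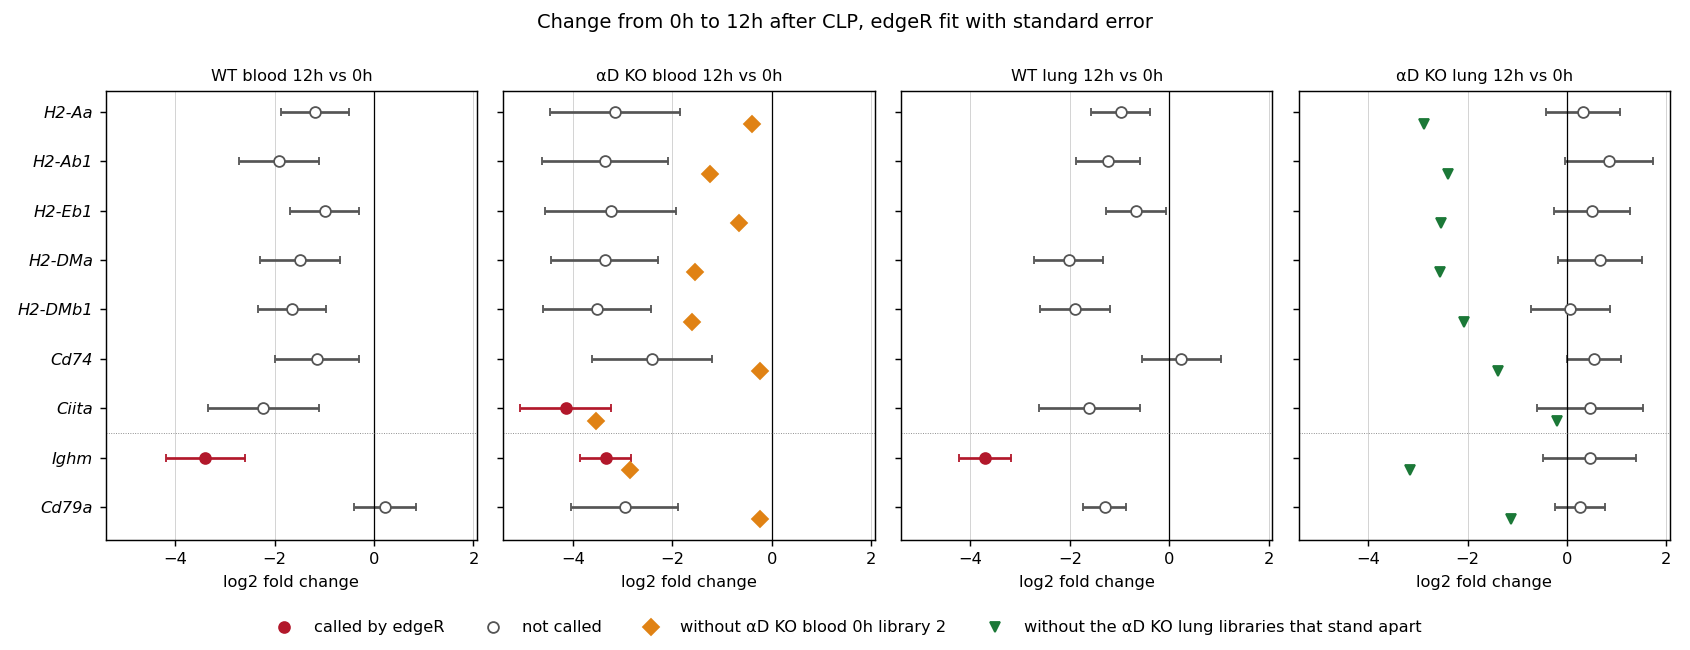
Log2 fold change from 0h to 12h after CLP with its standard error (edgeR) for the 7 members, Ighm and Cd79a in WT blood, αD KO blood, WT lung and αD KO lung. Red points were called and open points were not. Diamonds give the value without αD KO blood library 2 at 0h, and triangles that without the 3 αD KO lung libraries that stand apart. Ciita in αD KO blood (-4.15) is the only red member, and the triangles of all 7 members lie below 0.

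Whether the change with time differed between tissues or genotypes was tested as an interaction. DESeq2 called 0 of 7 members in each of the 3 interactions. Over all genes it called 95 for WT lung against WT blood, 1 for αD KO against WT in blood and 317 in lung. An unadjusted edgeR p under 0.05 was reached by 1 member in 1 interaction, H2-DMa in lung. That level was reached by 5.49% of genes for WT lung against WT blood, 1.17% for αD KO against WT in blood and 10.5% in lung. Between WT lung and WT blood, 0 of 7 members were called (0% of 23497 genes), with edgeR adjusted p from 0.893 to 0.979. The difference was 1.30 for Cd74 (standard error 1.37) and 0.12 for H2-Aa (standard error 1.05) on the log2 scale, with -0.43 for Ighm and -1.74 for Cd79a. Its median was 0.23 for the members and 0.56 for all genes tested. Between αD KO and WT in blood, 0 of 7 were called (0% of 19792 genes), with differences from -2.07 (H2-Eb1) to -1.08 (Cd74) and -1.82 for Ciita (standard error 1.47). Ighm had 0.18 and Cd79a -3.01. Without αD KO blood library 2 at 0h, 6 of the 7 differences were above 0, and Cd79a had -0.27. Between αD KO and WT in lung, 0 of 7 were called (0% of 23211 genes). The difference was 2.76 for H2-DMa (standard error 1.20, edgeR adjusted p = 0.451) and 0.32 for Cd74 (standard error 1.15). Ighm, with 4.23 (edgeR adjusted p = 0.410), was called by DESeq2 (adjusted p = 0.0323), and Cd79a had 1.70 (edgeR adjusted p = 0.417). Without the 3 libraries that stand apart, 6 of the 7 members were below 0, with a median of -1.07, and Ighm had 0.63 and Cd79a 0.30.

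The tissues were compared at each time, and DESeq2 called 0 of 7 members in each of these comparisons. Over all genes DESeq2 called 42 in WT at 0h, 869 in WT at 12h, 113 in αD KO at 0h and 1249 in αD KO at 12h. Unadjusted edgeR p under 0.05 were reached by 0 members in WT at 0h, 1 in WT at 12h, 4 in αD KO at 0h and 1 in αD KO at 12h, where 2.54%, 18.1%, 2.91% and 22.2% of genes reached it. In WT at 0h, 0 of 7 members and 0% of 15967 genes were called, and the members' log2 fold changes, lung against blood, ran from -1.40 (H2-DMb1) to 0.14 (H2-Eb1). Libraries overlapped for all 7 members, where 6.85% of genes did not. H2-Aa, at 23.8 ± 9.59 CPM in lung and 24.1 ± 17.4 CPM in blood (SD, n = 3), had -0.02 with a standard error of 0.62. Ighm had -0.40 and Cd79a 0.30. In WT at 12h, 0 of 7 members and 0.0442% of 13590 genes were called. Cd74 was 161 ± 135 CPM in lung and 75.7 ± 63.6 CPM in blood (log2 fold change 1.03, standard error 0.91). The DM chains went the other way. H2-DMb1 was 0.73 ± 0.169 CPM in lung and 2.42 ± 0.739 CPM in blood (log2 fold change -1.70, standard error 0.60, edgeR adjusted p = 0.204). H2-DMa had -1.13. These DM chains were the 2 members without overlap between the tissues, where 23.7% of genes had none. Ighm had -0.71 and Cd79a -1.22. In αD KO at 0h, 0 of 7 members and 0% of 19000 genes were called, with log2 fold changes from -3.06 (H2-DMa) to -2.34 (Ciita). Ciita was the 1 member whose libraries did not overlap, where 7.15% of genes did not. Without αD KO blood library 2, the members ran from -1.81 (Ciita) to 0.14 (H2-Eb1), and without αD KO lung library 2 from -2.54 to -1.64. Ighm had -1.26, and Cd79a had -3.01 and -0.31 without αD KO blood library 2. In αD KO at 12h, 0 of 7 members and 0.0548% of 14592 genes were called. Ciita was 2.28 ± 0.623 CPM in lung and 0.502 ± 0.522 CPM in blood, and was the 1 member without overlap, where 27.8% of genes had none (log2 fold change 2.22, standard error 0.91, edgeR adjusted p = 0.204). All 7 members were above 0, from 0.41 (Cd74). Ighm had 2.49 (edgeR adjusted p = 0.146) and was called by DESeq2 (adjusted p = 0.0159), and Cd79a had 0.20. Without the 2 lung libraries that stand apart, 6 of 7 members were below 0 and Ciita had 1.97, while Ighm had -0.77 and Cd79a -1.11. The 7 lung epithelium and endothelium markers had medians, lung against blood, of 0.13 in WT at 0h and 4.43 at 12h. In αD KO their medians were 4.34 at 0h and 5.48 at 12h, where 2 of 7 were called. Without the libraries that stand apart, these αD KO medians were 4.76 and 4.48. The part of such cells in the members' values was not tested.

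The genotypes were compared by their labels in each tissue and time, and DESeq2 called 0 of 7 members in each. Over all genes DESeq2 called 5 in blood at 0h, 14 in blood at 12h, 7 in lung at 0h and 152 in lung at 12h. Unadjusted edgeR p under 0.05 were reached by 0 members in blood at 0h and at 12h, by 1 in lung at 0h and by 2 in lung at 12h, where 0.709%, 4.01%, 1.86% and 8.29% of genes reached it. In blood at 0h, 0 of 7 members and 0.0115% of 17356 genes were called. The members' log2 fold changes, αD KO against WT, ran from 1.00 (Ciita) to 1.99 (H2-Eb1), and without αD KO library 2 from -0.73 (H2-Aa) to 0.58 (Ciita). Cd79a had 2.24, and -0.38 without that library, and Ighm -0.27. In lung at 0h, 0 of 7 members and 0% of 18232 genes were called. Cd74 averaged 78.7 ± 18.4 CPM in the αD KO libraries and 132 ± 32.8 CPM in the WT libraries (SD, n = 3, log2 fold change -0.75, standard error 0.31, edgeR adjusted p = 0.983), and libraries overlapped. Without αD KO lung library 2, which stands apart, Cd74 had -0.69, H2-DMb1 went from -0.03 to 0.39, and the other 6 members stayed below 0. Ighm had -1.15 and Cd79a -1.02, and -0.70 and -0.82 without that library. In blood at 12h, 0 of 7 members and 0% of 12596 genes were called, and the members ran from -0.82 (Ciita) to 0.18 (Cd74), with standard errors from 0.58 to 1.20. Ighm had -0.24 and Cd79a -0.90. Libraries overlapped for all 7 members in these 3 comparisons, where 3.35%, 7.58% and 9.76% of the genes tested did not.

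In lung at 12h, 0 of 7 members and 0% of 16764 genes were called. H2-DMb1 measured 3.21, 0.94 and 3.99 CPM in the αD KO libraries against 0.55, 0.885 and 0.754 CPM in the WT libraries (log2 fold change 2.03, standard error 0.76, edgeR adjusted p = 0.598). It was the 1 member without overlap, where 10.9% of genes had none. H2-DMa had 2.12 (standard error 0.90, edgeR adjusted p = 0.598) and Ciita 1.46, while H2-Aa had 0.54 and Cd74 -0.36 (standard error 0.96). Ighm had 3.11 (edgeR adjusted p = 0.598, DESeq2 adjusted p = 0.0312) and Cd79a 0.65. Libraries 1a and 2 alone gave 4 called members, H2-Ab1, H2-DMa, H2-DMb1 and Ciita (log2 fold changes 1.17 to 2.83), where 30.1% of genes were called, but those αD KO libraries are the ones that stand apart. Without them, library 1b of αD KO against the 3 WT libraries gave -0.76 for H2-DMa, -2.41 for H2-Aa, -2.27 for Cd74, -1.95 for H2-Eb1 and -1.54 for H2-Ab1, but 0.35 for H2-DMb1 and 1.44 for Ciita, with 0 members called. Ighm had -0.03 and Cd79a -0.47 there.

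**Figure D4:**
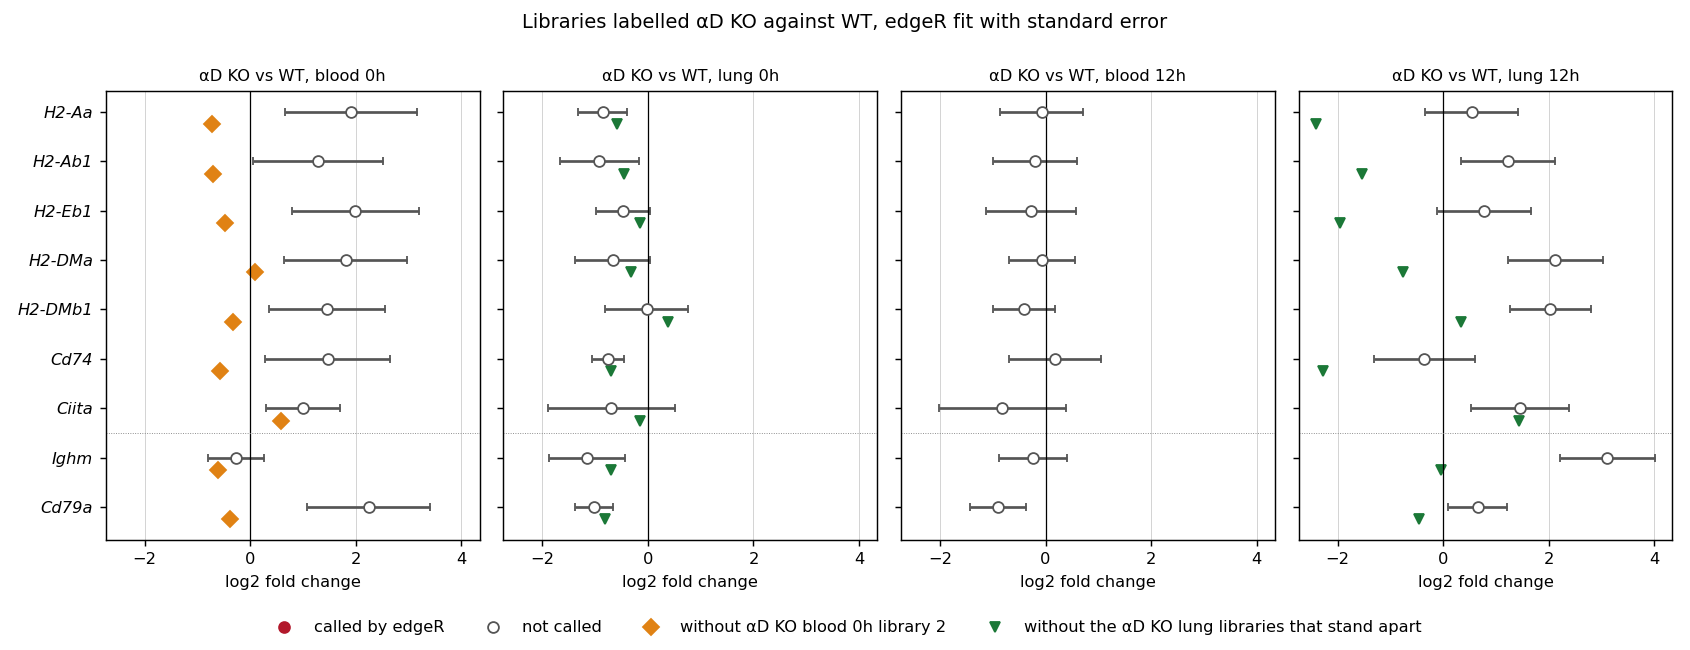
Log2 fold change of libraries labelled αD KO against WT with its standard error (edgeR) in blood and lung at 0h and 12h. No point is red, since no member and neither B cell gene was called. Diamonds without αD KO blood library 2 at 0h lie nearer 0 than the open points for all 7 members in blood at 0h, and triangles without the αD KO lung libraries that stand apart lie below 0 for 5 of 7 members in lung at 12h.

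Other genes of the pathway were counted by list in the same fits. Of 6 other class II genes, 3 passed the filter in each time comparison (H2-DMb2, H2-Oa and H2-Ob), and 0 were called in any of the 12 pairwise comparisons. H2-Ob, a chain of the H2-DM regulator H2-DO, was 1.65, 2.16 and 6.67 CPM in WT blood at 0h and 0.470, 0.273 and 2.31 CPM at 12h. For αD KO blood it was 4.02, 2.30 and 41.7 CPM at 0h and 2.93, 0.0899 and 0.368 CPM at 12h. With 1 library left out, 0 to 2 of these class II genes fell in WT lung over time. Of 8 genes for factors on the X and Y boxes (Rfx5, Nfya and others), all passed the filter in the 4 time comparisons, and 0 were called. With 1 library left out, 0 to 2 of the 8 fell in WT blood and 0 to 1 in WT lung. With all libraries, the median log2 fold change of the 8 was 0.12 in WT blood, 0.01 in αD KO blood, -0.23 in WT lung and 0.18 in αD KO lung, against -1.49, -3.36, -1.24 and 0.50 for the members.

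On the interferon gamma route to Ciita, 7 of 8 genes were tested in the time comparisons. Irf1, an activator of the Ciita promoter, fell in WT blood (log2 fold change -1.78, edgeR adjusted p = 0.0166). This call was lost without library 1a or 2 of either time (adjusted p from 0.200 to 0.410), and 0 to 4 of the list fell with 1 library left out. Of these 7, 0 were called in αD KO blood or lung. Without the αD KO lung libraries that stand apart, 0 genes of the pathway lists in these paragraphs passed the thresholds over time in αD KO lung, members aside. Of 8 proteases and other loading genes tested, the cathepsin gene Ctsb rose in WT lung (log2 fold change 2.39, edgeR adjusted p = 0.0228), a call lost without any 1 of 5 libraries, all but 1b at 12h (0.0552 to 0.315), where 0 to 3 of the list rose and 0 to 1 fell with 1 library left out. Sppl2a, whose protease clears the last fragment of CD74, rose in αD KO blood (1.19, edgeR adjusted p = 0.0433), a call lost without any 1 of 5 libraries, all but 1b at 12h (0.105 to 0.210). With all libraries, 0 of these genes fell in any time comparison. Of 6 costimulation genes, Cd86 fell in WT blood (log2 fold change -1.57, edgeR adjusted p = 0.0283), a call lost without library 1a or 2 of either time (0.244 to 0.380), and 0 of 6 were called in the other time comparisons. With 1 library left out, 0 to 3 of the 6 fell in WT blood, 0 to 3 rose and 0 to 1 fell in WT lung, and 0 to 1 rose in αD KO blood. For the 10 class I genes, 0 were called in the 4 time comparisons, with medians of -0.55 in WT blood, -0.39 in αD KO blood, -0.23 in WT lung and 0.15 in αD KO lung, while up to 3 fell in WT blood and in WT lung with 1 library left out.

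Markers of cells that carry class II were counted in the same fits, where 5.75% of all genes tested fell in WT blood, 3.78% in WT lung and 4.99% in αD KO blood. Of 13 B cell markers, 2 fell in WT blood (Ighm and Bank1), 5 in WT lung (Ighd, Ighm, Cd79b and Fcmr among them) and 5 in αD KO blood (Ighm, Bank1, Ighd, Fcmr and Ms4a1), and 0 were called in αD KO lung. Without the αD KO lung libraries that stand apart, 1 of 13 passed the thresholds there (Ighm, lower at 12h), and 0 of the dendritic cell and 0 of the monocyte and macrophage markers did. With 1 library left out, the B cell markers that fell numbered 0 to 3 in WT blood, 0 to 10 in WT lung and 0 to 6 in αD KO blood. In WT lung the median log2 fold change of the B cell markers was -2.76, with Ighd at -4.69. That of the members was -1.24, with Cd74 at 0.24 and the other 6 below 0. Of 8 dendritic cell markers, 3 fell in WT blood and 4 in αD KO blood, while 0 of 7 tested were called in WT lung. With 1 library left out, 0 to 3 fell in each blood comparison and 0 to 4 in WT lung. Cd209a had log2 fold changes of -5.74 in WT blood and -6.09 in αD KO blood. Of 11 monocyte and macrophage markers, 2 of 9 tested fell in WT blood (Ccr2 and Csf1r), 4 of 10 in αD KO blood (Csf1r, Adgre1, C1qa and C1qc) and 2 of 8 in WT lung (Csf1r and Adgre1), while Ly6c2 rose in WT blood (log2 fold change 2.54) and WT lung (2.54). With 1 library left out, 0 to 4 of them fell in WT blood, 1 to 7 in αD KO blood and 0 to 2 in WT lung. The median of that list was -0.70 in WT blood, -3.43 in αD KO blood and 0.08 in WT lung. Over the groups, the B cell markers without Ighm summed to 79.9 to 156 CPM in WT blood at 0h and 19.1 to 126 CPM at 12h. Those of αD KO blood summed to 81.8 to 858 CPM at 0h and 12.8 to 41.0 CPM at 12h, and in WT lung to 106 to 169 CPM at 0h and 7.70 to 35.8 CPM at 12h. At least 9 of these 12 markers were detected in every library. The part of these cells in the members' values was not tested.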

How the data were processed

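RNA of sorted neutrophils was sequenced by the authors after SMART-Seq v4 amplification and Nextera XT library preparation. The submitters' processing notes name Trimmomatic 0.36, STAR 2.5.2b and build GRCm38 (mm10). The authors deposited raw counts per gene, made from unique reads within exons, and the strand setting of the counting is not given in the sources used here. Of 49315 gene IDs, 48970 matched a symbol. Total counts were 5753476 to 29984954 per library.

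Each of the 3 count files of a group was taken as a library. Both files of a first sample differed by more than counting noise (chi-square per degree of freedom 89.4 to 565 over genes), so they are not the same library deposited again, but repeat preparations of a single sample would differ so too, and the fits with these files summed (2 against 2) are the ones that count samples. Levels are in CPM, a gene's count relative to the library's total count, scaled by TMM factors. The 12 pairwise comparisons used the libraries of their groups in edgeR 4.0.16 (R 4.3.3, limma 3.58.1), with filterByExpr and the quasi-likelihood F test, and 3 interactions used 4 groups each. P-values were adjusted by the Benjamini-Hochberg method over all genes tested. A pairwise call needed an adjusted p under 0.05 with a log2 fold change beyond 1 in either direction, an interaction the adjusted p alone. Scripts were tested on simulated data. The members and lists were chosen with earlier results of these data known. Named were the members and both B cell genes in every comparison, up to 4 genes of a list by smallest p, and 10 genes by likeness. Genes named beyond that rule were chosen after their values were seen, and some genes of the lists are not reported here.

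Same-numbered libraries deviated together (all correlations over 0.1) in 6 of 12 comparisons, WT blood and αD KO lung over time, lung against blood in WT at both times and in αD KO at 12h, and αD KO against WT in blood at 0h. The labels state no pairing. Alternatives were DESeq2 1.42.0, RLE normalization, low counts left unfiltered, all 8 groups in the fit, files of the first sample summed, the library number as a block, libraries 1a and 2 only, each library left out, and the αD KO lung libraries that stand apart left out. Tables and figures were made with Python 3.11.15, pandas 2.3.3, numpy 2.4.6, scipy 1.17.1 and matplotlib 3.10.9.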

Additional observations from a re-analysis of the deposited data

How the results depend on the processing

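The number of members called changed with the processing in 6 of 15 comparisons. In WT blood over time it was 0, but 1 with the files of the first sample summed (H2-Ab1), 1 with the replicate block (Ciita), 2 with libraries 1a and 2 only (H2-Ab1 and H2-DMb1) and 0 to 3 with 1 library left out. Over all genes these fits called 2756, 2692, 3201 and 2 to 2804, in that order. In WT lung over time it was 0, but 1 with libraries 1a and 2 only and 0 to 1 with 1 library left out (Ciita in both). Over all genes these fits called 5299 and 0 to 3941. In αD KO blood over time it was 1, but 7 with no filter on low counts, 3 with DESeq2, 3 with libraries 1a and 2 only, 0 with all 8 groups in the fit, 0 with the files of the first sample summed and 0 to 3 with 1 library left out. Over all genes these fits called 1667, 2342, 1558, 64, 635 and 74 to 1414, in that order. In αD KO lung over time it was 0, but 1 without the libraries that stand apart (H2-Aa), which is no test, as they were picked along a time axis. For lung against blood in αD KO at 12h it was 0, but 1 with libraries 1a and 2 only (Ciita). That fit called 4881 genes, against 8 with all libraries. For αD KO against WT in lung at 12h it was 0, but 4 with libraries 1a and 2 only, where 4686 genes were called. With the files of the first sample summed, Ighm stayed called in WT blood, WT lung and αD KO blood over time (edgeR adjusted p = 0.0364, 0.0176 and 0.0251). The block changed no other count of members called. RLE normalization changed none of the 15 counts. Unless a value is given, the cause of these changes was not tested.

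Signs turned for several values. The log2 fold change of Cd79a in WT blood was -0.02, -0.09 and -0.48 without libraries 1a and 1b at 0h and library 2 at 12h, and reached 1.13 without library 2 at 0h. Cd74 in WT lung had -0.37 with the block and ran from -0.55 to 0.67 with 1 library left out (without 2 and 1b at 12h). Without the libraries that stand apart, αD KO against WT in lung at 12h gave -0.76 for H2-DMa and -0.032 for Ighm.

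Counts over all genes moved as well. In WT blood over time 1975 genes were called, 944 with no filter, 1118 with all 8 groups, 3201 with libraries 1a and 2 only, and 2 to 2804 with 1 library left out. In WT lung 1340 genes were called, 447 with all 8 groups, 893 with the block, 5299 with libraries 1a and 2 only, and 0 to 3941 with 1 library left out. In αD KO blood 1238 genes were called, 64 with all 8 groups, 635 with the files summed, 2342 by DESeq2, and 74 to 1414 with 1 library left out. With 1 library left out, as few as 0 markers of each of the B cell and dendritic cell lists were called in each of the 4 time comparisons. Without the libraries that stand apart, all 7 members turned from above to below 0 in αD KO lung over time. Without αD KO blood library 2 at 0h, 5 of 7 turned in αD KO against WT in blood at 0h and 6 of 7 in the blood interaction. Counts of Ciita were 1 to 380 per library.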
